A study of Mus musculus with 3 samples.

Results

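Colony-stimulating factors are secreted proteins that keep blood cells of the myeloid line alive and growing, and many of them come from connective tissue cells. The ligand Csf1 and the second ligand Il34 both bind Csf1r, the tyrosine kinase receptor on which macrophages depend for survival. Csf2 signals through a receptor of the ligand-binding chain Csf2ra and the shared chain Csf2rb, Csf3 signals through Csf3r on granulocytes, and Kitl, also called stem cell factor, binds Kit on mast cells and blood stem cells. The 9 mouse genes described here are the 5 ligands Csf1, Il34, Csf2, Csf3 and Kitl and the 4 receptor genes Csf1r, Csf2ra, Csf2rb and Csf3r. They were chosen by the RefSeq transcript that the scanner files name for each probe, which gave 13 probes of the 41174 on the arrays. Of the 9 genes, 6 passed the filter on dim probes and were among the 18485 genes or transcripts tested, namely Csf1, Il34, Kitl, Csf1r, Csf2ra and Csf2rb.

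The study set untreated SA1-null primary mouse embryonic fibroblasts against wild-type ones, all from E12.5 embryos and grown in DMEM with 10% serum. Fibroblasts are connective tissue cells, and SA1 belongs to cohesin, a ring-shaped complex that keeps sister chromatids joined and helps to fold chromatin. On each of 3 arrays, called biological replicates 1 to 3, RNA labelled SA1-null was in Cy3 and RNA labelled wild type in Cy5. No array carried the dyes the other way, and genotype and dye therefore cannot be told apart. All ratios are on the log2 scale with the SA1-null label on top and the wild-type label below, so a value below 0 means more signal in the channel labelled wild type. The labels do not say how the SA1 allele was made, which embryos were littermates, or how many embryos gave each culture.

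Stag1, the gene of SA1, went against the labels. Its log2 ratio was 3.34, 3.74 and 3.47 on replicates 1, 2 and 3, with more signal in the channel labelled SA1-null each time (mean 3.52 ± 0.21, SD, n = 3, limma adjusted p = 0.0273). The ratio was 3.40 without replicate 2 and 3.54 without replicate 3, and neither passed the threshold (limma adjusted p = 0.214 and 0.490). These values are of the brightest of 4 Stag1 probes. The others had means of 3.53, 2.17 and 0.59, and each was above 0 on every array. In the channel labelled wild type, the probe at 2.17 was well above background on 2 of 3 arrays and that at 0.59 on 0 of 3. Averaged over its probes, Stag1 had a ratio of 2.45 (limma adjusted p = 0.0299). Every direction below is therefore given by channel label only. Between 60.6% and 65.7% of probes were well above background in the channel labelled SA1-null, and between 61.8% and 67.0% in the channel labelled wild type. Replicate 1 was hybridised on another slide and read with another version of the scanner software than replicates 2 and 3. Both channels of replicate 1 also stood apart in markers of macrophages, the tissue phagocytes. Summed over the 18 macrophage markers tested, of 20 listed, normalized signal was 40113, 10008 and 8416 in the channels labelled SA1-null of replicates 1, 2 and 3, and 434157, 79585 and 73165 in the channels labelled wild type. All 18 markers were below 0 on 3 of 3 arrays, against 19.1% of all genes tested. With less signal in the channel labelled SA1-null, 11 passed the test, against 0.303% of all genes. None (0) was without a probe well above background in either channel. Fibroblast markers were measured in both channels as well, with 14 of 16 tested, a median log2 ratio of 0.68, and 0 past the test. Their median was uneven over arrays, at 1.09, 0.10 and 0.63 on replicates 1, 2 and 3. Above 0 were 13 of these 14, and 8433 of all 18485 genes tested. On 3 of 3 arrays 8 of the 14 were above 0, against 13.3% of all genes.

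Promoter sequences of the 9 genes were looked up in RefSeq (build GRCm38.p6), and 5 were found. The 3 shown are those of the receptor chain Csf2ra, measured on all arrays, of Csf3r, measured on 1 array only, and of Csf1, the ligand of Csf1r. Each runs 5′ to 3′ over the 250 bases before the annotated start, and capitals mark GAGGAA, the core bound by PU.1, an ETS factor of myeloid cells. The Csf2ra stretch is chr19:61228419-61228668 on the minus strand, the Csf3r stretch chr4:126024409-126024658 on the plus strand, and the Csf1 stretch chr3:107760470-107760719 on the minus strand.
Csf2ra: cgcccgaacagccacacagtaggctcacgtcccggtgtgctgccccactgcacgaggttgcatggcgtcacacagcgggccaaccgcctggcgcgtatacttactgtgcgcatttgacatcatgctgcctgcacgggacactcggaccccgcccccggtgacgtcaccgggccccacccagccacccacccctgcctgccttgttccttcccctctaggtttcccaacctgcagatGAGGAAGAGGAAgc
Csf3r: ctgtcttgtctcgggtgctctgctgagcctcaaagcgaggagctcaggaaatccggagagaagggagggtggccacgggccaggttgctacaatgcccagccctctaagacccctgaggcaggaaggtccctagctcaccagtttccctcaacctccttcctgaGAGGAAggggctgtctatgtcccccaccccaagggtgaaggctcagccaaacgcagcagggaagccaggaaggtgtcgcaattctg
Csf1: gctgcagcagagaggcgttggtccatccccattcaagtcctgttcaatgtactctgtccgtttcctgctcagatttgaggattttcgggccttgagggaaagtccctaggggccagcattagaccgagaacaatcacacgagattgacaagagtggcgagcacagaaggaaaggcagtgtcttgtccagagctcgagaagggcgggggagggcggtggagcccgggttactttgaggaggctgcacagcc
GAGGAA, searched on both strands, began 14 and 8 bases before the start of Csf2ra and 86 bases before that of Csf3r, and it was not in the stretch shown for Csf1 nor in those of Csf2 and Kitl. Of all 32851 promoters of that length in the table, 23.3% held it. The CK-1 element of cytokine genes (GAGATTCC, in 0.755% of promoters) and the AP-1 element (TGANTCA, in 6.75%), both searched on both strands, were in none of these 5 stretches (0 matches). Csf3 was not among the 5 genes, and bases outside these stretches were not searched, so an element may lie elsewhere. A match is a run of letters and no measure of binding.

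Of the 6 tested genes, none (0) passed an adjusted p of 0.05 in limma, against 0.314% of all genes tested (0.0108% with more signal in the channel labelled SA1-null and 0.303% with less). At an unadjusted p under 0.05 there were 3, Csf1r, Csf2ra and Csf1, all with more signal in the channel labelled wild type, against 7.49% of all genes in either direction, 5.16% in that direction and 2.33% in the other. Csf1r and Csf2ra had the 89th and the 113th smallest p of the 18485. Below 0 on 3 of 3 arrays were 4 of the 6 genes, against 19.1% of all genes, and none (0) was above 0 on 3 of 3, against 13.3%. The 3 tested receptor genes had a median of -1.43 and the 3 tested ligand genes one of 0.21, where all genes tested had -0.02. With 3 genes each, these medians are the single values of Csf2ra and Kitl, and Csf1 lay at -0.65.

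**Figure D1:**
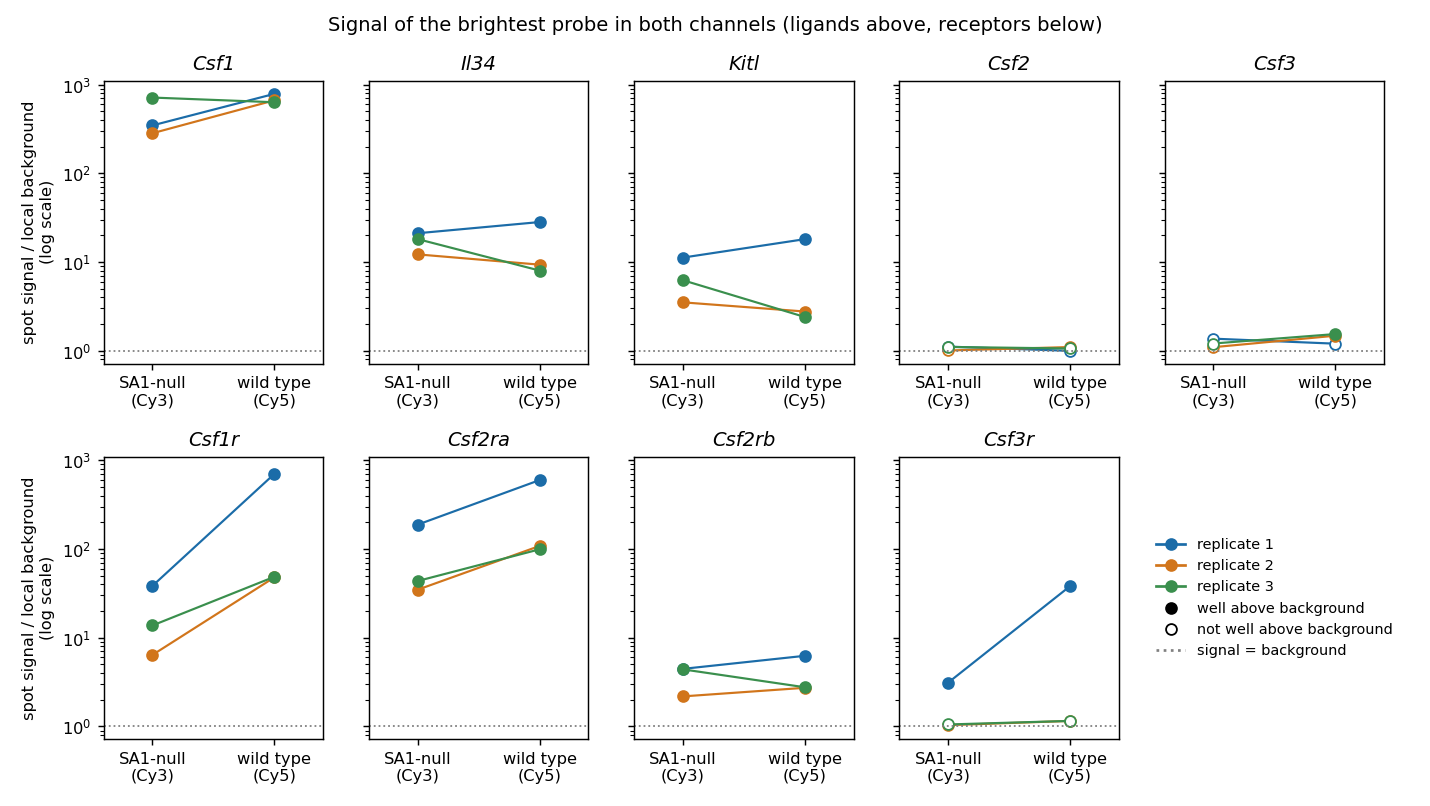
Spot signal over local background (log scale) of each gene's brightest probe, with the channel labelled SA1-null (Cy3) at the left and the channel labelled wild type (Cy5) at the right of each panel, and a line per array. Csf1 lies far above background everywhere, Csf2 lies at background everywhere, and Csf3r leaves background on replicate 1 only.

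Of the 6 tested genes, the receptor genes Csf1r and Csf2ra had the largest mean ratios in size and the receptor gene Csf2rb the smallest. Csf1r, the receptor of macrophages, lies on chromosome 18. Its brightest probe read 942.5, 221 and 399 in the channels labelled SA1-null of replicates 1, 2 and 3, against 43172, 2609 and 2358 in the channels labelled wild type. The channel labelled wild type read more on every array, and replicate 1 read far more than the others in that channel. The local background was between 24.5 and 34.5 in the channels labelled SA1-null, so the receptor's transcript was well above background on both sides on 3 of 3 arrays. After normalization the log2 ratio was -3.75, -2.47 and -2.44 (mean -2.89 ± 0.75, SD, n = 3, 7.41-fold), with a 95% interval of -3.71 to -2.07. It did not pass the threshold (limma adjusted p = 0.0683). Without replicate 1 it did, at -2.46 (limma adjusted p = 0.00249), which rests on 2 arrays of 1 slide. Without replicate 2 and without replicate 3 it did not, at -3.10 and -3.11 (limma adjusted p = 0.267 and 0.691).

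The other Csf1r probes went the same way, with sizes that followed their brightness. The next brightest read 360.5, 91 and 152 in the channels labelled SA1-null, against 7625, 557 and 518 in those labelled wild type, and its log2 ratios were -2.65, -1.44 and -1.51 (mean -1.87 ± 0.68, SD, n = 3). The dimmest read 37.5, 36 and 39, against 298, 75 and 76, and its mean ratio was -0.45 ± 0.54. It was well above background in the channel labelled SA1-null on 1 of 3 arrays only. Averaged over its probes, Csf1r had a ratio of -1.74 (limma adjusted p = 0.193).

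Csf2ra, the chain that binds Csf2, lies on chromosome 19 and has 1 probe. It read 4239, 1253 and 1265 in the channels labelled SA1-null, against 37710, 5737 and 4714 in the channels labelled wild type. Again every array read more in the channel labelled wild type, and replicate 1 was the brightest in both channels. The log2 ratios were -1.39, -1.19 and -1.72 (mean -1.43 ± 0.27, SD, n = 3, 2.70-fold), with a 95% interval of -1.88 to -0.98. The spread over arrays was smaller than that of Csf1r, and the gene missed the threshold too (limma adjusted p = 0.0854). Without replicate 1 it passed, at -1.45 (limma adjusted p = 0.0276). Without replicate 2 and without replicate 3 it did not, at -1.55 and -1.29 (limma adjusted p = 0.397 and 0.761).

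Csf2rb, the chain that the receptors for Csf2, interleukin 3 and interleukin 5 share, did not follow Csf2ra. It lies on chromosome 15. Its brighter probe read 4.46, 2.18 and 4.40 times its local background in the channels labelled SA1-null, against 6.25, 2.73 and 2.77 times in the channels labelled wild type, a faint signal that was well above background in all 6 samples. After normalization its ratios were -0.19, -0.09 and -0.14 (mean -0.14 ± 0.05, SD, n = 3, limma adjusted p = 0.804), with a 95% interval of -0.51 to 0.23. The ratio of Csf2ra lay below that of Csf2rb on each array (mean difference -1.29 ± 0.25, SD, n = 3), and the 95% intervals of the genes do not overlap. No model was fitted to that difference, and the smallest two-sided p of a sign test over 3 arrays is 0.25. The second Csf2rb probe was not well above background in the channel labelled SA1-null on any array (0 of 3), and was above it in the channel labelled wild type on replicate 1 only. Over the means of the 3 arrays the signal was 1.15-fold higher in the channel labelled wild type. Normalized log2 levels were 6.08 in the channels labelled SA1-null and 6.29 in those labelled wild type. As the channel labelled wild type was itself dim on replicates 2 and 3, this fold is no lower bound. Each such fold sets the mean level of the brighter channel against a limit on each array. That limit is the lowest signal counted as above background, or the dim probe's own where that is higher.

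Csf2rb has a close mouse copy, Csf2rb2, which serves only interleukin 3. Its probe read 207, 60 and 88.5 in the channels labelled SA1-null, against 8068, 395 and 317.5 in the channels labelled wild type. The log2 ratios were -3.49, -1.48 and -1.44 (mean -2.14 ± 1.17, SD, n = 3, limma adjusted p = 0.347). Copies this similar can share signal on a probe, so the values of both are uncertain.

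Csf3r, the receptor of granulocytes, on chromosome 4, was measured in 1 pair of samples only. Its probe read 64, 30 and 30 in the channels labelled SA1-null, against 2269.5, 60 and 56 in the channels labelled wild type. On replicate 1 both channels were well above background, with a log2 ratio of -3.05. On replicates 2 and 3 neither channel was, the local background being 29 and 28.5 in the channels labelled SA1-null and 52 and 48.5 in those labelled wild type. The gene was therefore not tested, and its signal was not detectable there at these signal levels. Of 8 neutrophil markers with a probe, 6 were not well above background on any array in the channel labelled SA1-null and 4 in the channel labelled wild type. The calprotectin gene S100a9, the granule genes Camp and Ngp and the chemokine receptor gene Cxcr2 were dim in both. S100a8 and Ltf were dim in the channel labelled SA1-null only. Mpo, the 1 marker tested, was at 0.05 ± 0.03. It was well above background in the channel labelled SA1-null on 2 of 3 arrays and in the channel labelled wild type on 3 of 3.

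**Figure D2:**
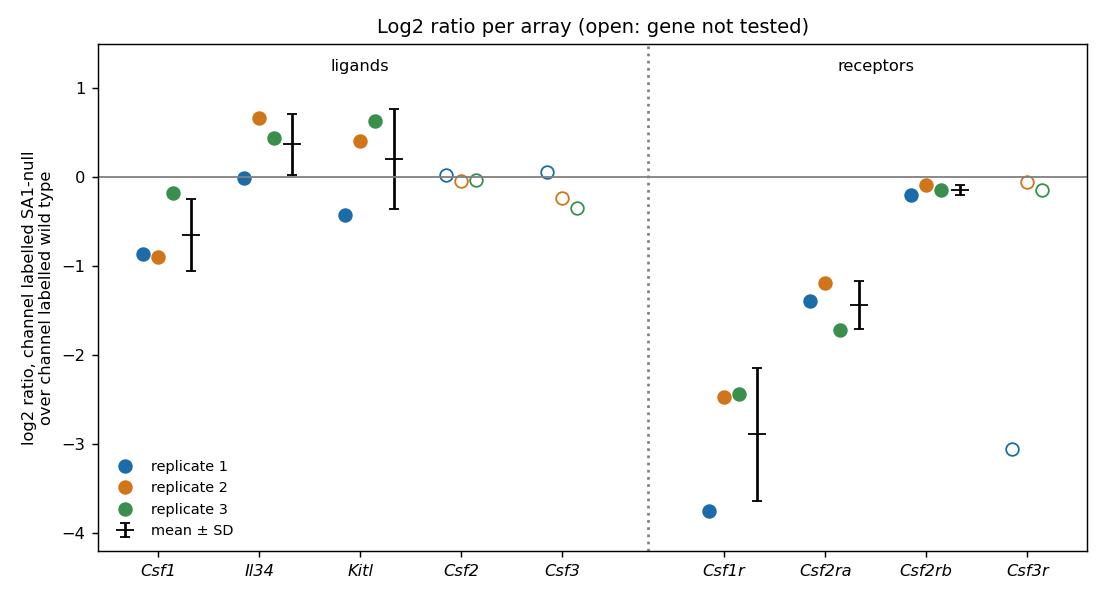
Log2 ratio of the brightest probe of each gene on each array, SA1-null label over wild-type label, with mean and SD of the tested genes. Csf1r lies between -3.75 and -2.44 and Csf2ra between -1.72 and -1.19, while Il34 and Kitl have arrays on both sides of 0.

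Csf1 was by far the best measured ligand. This gene, on chromosome 3, encodes the macrophage growth factor that fibroblasts secrete, and its probe is spotted 10 times on each array. The mean over spots was 8399, 9206 and 19843 in the channels labelled SA1-null, against 52586, 36371 and 34295 in the channels labelled wild type. Signal was high in all 6 samples, and the spot values of replicates 1 to 3 were between 283 and 787 times their local background. The brightest spot read 61175, and no spot on the arrays was marked as saturated (0). The log2 ratios were -0.86, -0.89 and -0.18 (mean -0.65 ± 0.40, SD, n = 3, 1.56-fold, limma adjusted p = 0.602), with a 95% interval of -1.18 to -0.11. The SD between the 10 spots was 0.06, 0.03 and 0.03 on the 3 arrays, so the spread of Csf1 lay between arrays and not between spots. With median centring in place of loess the mean was -1.27, where all genes had a median of -0.30, and it did not pass there either (limma adjusted p = 0.228).

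Il34, the other ligand of Csf1r, known from skin and brain, lies on chromosome 8. It read 507, 402.5 and 535 in the channels labelled SA1-null, against 1609, 486 and 401 in the channels labelled wild type, and was well above background in all 6 samples. The log2 ratios were -0.01, 0.67 and 0.45 (mean 0.37 ± 0.35, SD, n = 3, limma adjusted p = 0.703), with a 95% interval of -0.13 to 0.87. Replicate 1 lay at 0 and the others above it.

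Kitl, on chromosome 10, has a probe spotted 10 times as well. Its spot means were 266.6, 109.8 and 169.3 in the channels labelled SA1-null, against 1144, 152.6 and 124.95 in the channels labelled wild type. The log2 ratio was -0.43 on replicate 1, and 0.41 and 0.64 on replicates 2 and 3 (mean 0.21 ± 0.56, SD, n = 3, limma adjusted p = 0.840, 95% interval -0.45 to 0.87). The spots of an array agreed far better than the arrays did, with SDs of 0.05, 0.09 and 0.07. On replicate 1 the 10 spots lay between -0.50 and -0.36, and on replicate 3 between 0.52 and 0.75, so the change of sign between these arrays is larger than the error of spotting. The channel labelled wild type read 18.1, 2.77 and 2.40 times its local background on replicates 1, 2 and 3, a limit that the spot SDs do not measure. Without replicate 3 the mean ratio was -0.00711, without replicate 1 it was 0.52, and with median centring in place of loess it was -0.00871. With a background offset of 0 it was 0.38, and with the scanner software's processed signals 0.55. The second Kitl probe was above background in 1 of 6 samples, and no fold is given for it. Kit, the receptor of Kitl, was not well above background in the channel labelled wild type on any array (0 of 3), and was above it in the channel labelled SA1-null on 2 of 3, with spot means of 47.4, 36.2 and 37.9 against 81.3, 65.7 and 61.6. Over the means of the 3 arrays the channel labelled SA1-null was 1.13-fold higher. Log2 levels were 6.33 in the channels labelled SA1-null and 6.16 in those labelled wild type. The single ratios were 0.52, -0.03 and 0.03, so this fold rests on replicate 1 and is no lower bound.

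The remaining ligands were at or near background. Csf2, the granulocyte and macrophage factor, on chromosome 11, has a probe with 10 spots, of which 8, 7 and 9 were free of outlier flags. None of these (0) was well above background in either channel. The spot means were 25.8, 31.7 and 29.7 in the channels labelled SA1-null, over a background of 23.1, 31.5 and 26.9, against 61.6, 59.2 and 53.6 in the channels labelled wild type, over 61.8, 53.8 and 50.5. Csf2 transcript was not detectable in these cultures at this signal, and no fold is given. Csf3, the granulocyte factor, also on chromosome 11, read 26, 34 and 35 in the channels labelled SA1-null, against 77.5, 82 and 74 in the channels labelled wild type. It was well above background in the channel labelled SA1-null on 0 of 3 arrays, and in the channel labelled wild type on 2 of 3. Mean log2 levels were 6.15 in the channels labelled SA1-null and 6.33 in those labelled wild type. Reckoned as for Csf2rb, Csf3 was 1.13-fold higher in the channel labelled wild type. On replicate 1, with both channels dim, the ratio was 0.06, so this fold is no lower bound.

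Receptor and ligand ratios were also set against each other on the same array. Csf1r lay below its ligand Csf1 by -2.89, -1.58 and -2.26 log2 units on replicates 1, 2 and 3 (mean -2.24 ± 0.66, SD, n = 3), and below Il34 by -3.75, -3.14 and -2.89 (mean -3.26 ± 0.44). Csf2ra lay below Csf1 by -0.53, -0.29 and -1.54. Csf2rb went the other way. Its ratios of -0.19, -0.09 and -0.14 lay above those of Csf1 (-0.86, -0.89 and -0.18) on each array, on replicate 3 only narrowly. The receptor median lay below the ligand median by -0.96, -1.60 and -2.17 (mean -1.58 ± 0.60). On each array the receptor median was Csf2ra, and the ligand median was Kitl on replicates 1 and 2 and Il34 on replicate 3. All 3 arrays gave the same sign within each of these pairs, for which 0.25 is the smallest two-sided p a sign test allows.

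Levels of the same probe also differed between arrays. After normalization between arrays, Csf1r on replicate 1 was 2.70-fold above the mean of replicates 2 and 3 in the channels labelled SA1-null and 6.65-fold above it in the channels labelled wild type. For Csf2ra these folds were 3.11 in the channels labelled SA1-null and 2.98 in those labelled wild type. Kitl was 1.36-fold and 2.63-fold higher on replicate 1, and Csf2rb differed little, at 0.967-fold and 1.02-fold. Csf1 went the other way, at 0.606-fold and 0.761-fold. Replicate 1 alone stands for its slide, so slide, software version and culture cannot be told apart here, and the cause was not tested.

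The macrophage markers were also set beside the receptors on each array. The median of the 18 markers was -3.29, -2.50 and -2.77 on replicates 1, 2 and 3, beside -3.75, -2.47 and -2.44 for Csf1r. Csf2ra was at -1.39, -1.19 and -1.72, lowest on replicate 3, and Csf2rb at -0.19, -0.09 and -0.14. Of these markers 7 had a mean below that of Csf1r. Csf2ra lay nearer 0 than most, with 16 of the 18 markers below it, and Csf2rb, by its mean, nearer 0 than all 18. Among the markers that passed were the lysosomal protease Ctss (-4.15 ± 0.73), the lysozyme Lyz1 (-3.62 ± 0.23), the adaptor Tyrobp (-3.15 ± 0.15) and the leukocyte phosphatase Ptprc (-2.92 ± 0.35), with limma adjusted p between 0.0273 and 0.0312. Lyz1 has a near-identical neighbour, Lyz2, that its probe may also read, so its value is uncertain. In bulk RNA, fewer cells of a type and less RNA per cell cannot be told apart, and the part of these markers in the receptor ratios was not tested. Of 9 mast cell markers 4 were tested and 1 passed, the granule proteoglycan Srgn (-3.76 ± 0.59, limma adjusted p = 0.0275), which other blood cells express too. The tested mast cell protease gene Mcpt4 was at 0.21 ± 0.33, Gata2 at 0.59 ± 1.07 and the IgE receptor chain Fcer1a at -0.00347 ± 0.10, and none of these 3 passed.

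By the 3 array ratios, the tested genes nearest to Csf1r were Ms4a6d, C1qa, C1qb, Gpr65 and Inpp5d, at Euclidean distances of 0.12, 0.14, 0.36, 0.37 and 0.41 log2 units. Their mean ratios lay between -2.94 and -2.73. Nearest to Csf1 were Cnn1, Mmp9, Glrx and Myl12b, at 0.31, 0.33, 0.34 and 0.35. The distances rest on 3 arrays and are a description.

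Genes that carry or restrain the signal of these receptors inside the cell had a median of -0.38. The list holds inhibitors too, among them Ptpn6 and Inpp5d, so its median is no measure of signalling. Of 32 listed 30 were tested. Below 0 were 21 of these 30, and 10052 of all 18485 genes tested. Of the 30, 17 were below 0 on 3 of 3 arrays, against 19.1% of all genes. In this list 1 passed, against 0.314% of all genes. That was Ptpn6, the phosphatase SHP-1 of blood cells, at -3.31, -2.45 and -2.34 (mean -2.70 ± 0.53, SD, n = 3, limma adjusted p = 0.0481). The phospholipase Plcg2 (-1.81 ± 0.42), the inositol phosphatase Inpp5d (-2.94 ± 0.91) and the exchange factor Vav1 (-2.29 ± 0.68) came next and did not pass. At an unadjusted p under 0.05 there were 10 of 30 with more signal in the channel labelled wild type, against 5.16% of all genes, and 1 with more in the channel labelled SA1-null, against 2.33%. The kinases Jak1 (0.19 ± 0.19) and Jak2 (-0.08 ± 0.33), the adaptors Shc1 (0.79 ± 0.49) and Grb2 (-0.37 ± 0.36), the phosphatase Ptpn11 (-0.37 ± 0.28) and the transcription factors Stat3 (0.31 ± 0.24), Stat5a (0.43 ± 0.75) and Stat5b (-0.40 ± 0.46) did not pass. These 8 are named after their values were seen.

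**Figure D3:**
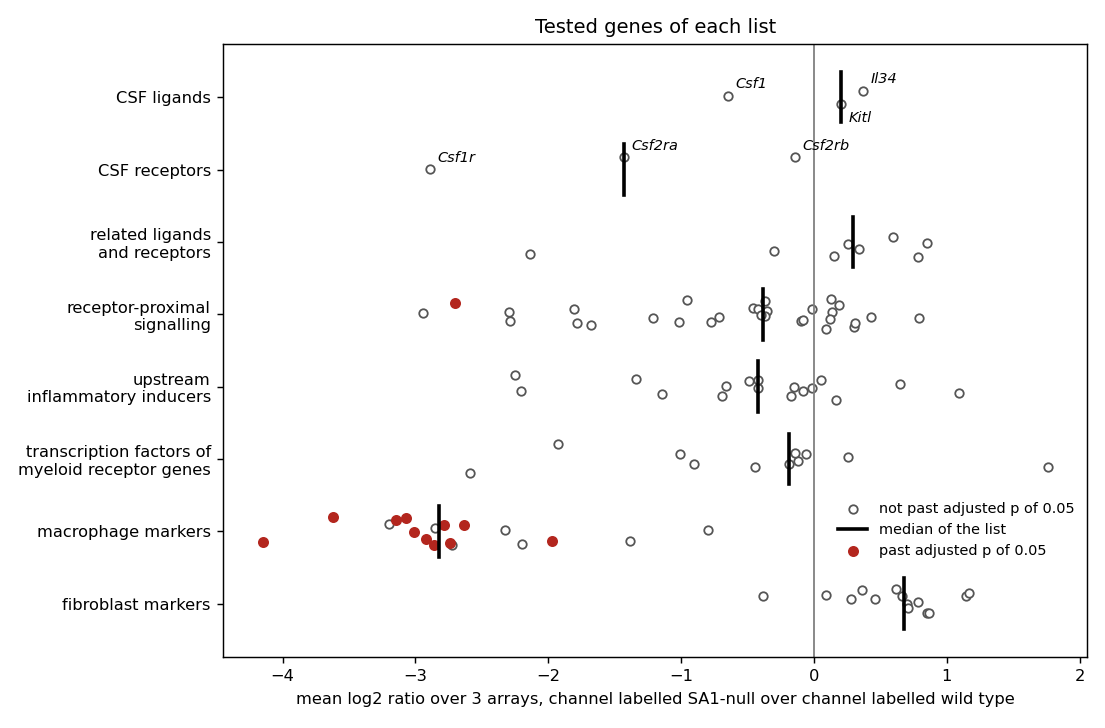
Mean log2 ratio of every tested gene in 8 lists, channel labelled SA1-null over channel labelled wild type, with the median of each list as a bar and filled points for genes past an adjusted p of 0.05. Csf1r lies among the macrophage markers (median -2.82), Csf2ra (-1.43) toward their end nearest 0, and the ligands lie at -0.65, 0.21 and 0.37.

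A list of inflammatory genes upstream of these ligands holds inducers and also inhibitors (Il1rn, Nfkbia and Zfp36). Its median was -0.42, and none of 17 tested (0) passed. At an unadjusted p under 0.05 there were 6 with more signal in the channel labelled wild type, against 5.16% of all genes, and 1 with more in the channel labelled SA1-null, against 2.33%. The interleukin gene Il1b (-2.25 ± 0.58, limma adjusted p = 0.0780) was well above background in the channel labelled SA1-null on 1 of 3 arrays only. Tnf was at -1.34 ± 0.29, the receptor gene Tlr2 at -2.21 ± 1.00 and Il6 at -1.14 ± 0.48. Of 13 transcription factors that act on myeloid receptor genes 11 were tested, with a median of -0.19 and 0 past the threshold. Irf8, a factor of the monocyte line, had the smallest p (-2.59 ± 0.75, limma adjusted p = 0.0863). Klf4 was at 1.76 ± 0.68 and Egr2 at -0.90 ± 0.41. Spi1, which encodes PU.1, was at -1.01 ± 0.59 and is named here after its value was seen. It was well above background in the channel labelled SA1-null on 2 of 3 arrays only.

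Of 16 relatives of these ligands and receptors 8 were tested, with a median of 0.30 and 0 past the threshold. The platelet-derived growth factor receptors Pdgfrb (0.85 ± 0.19, limma adjusted p = 0.256) and Pdgfra (0.79 ± 0.11, limma adjusted p = 0.260), kinases of the same family as Csf1r that mesenchymal cells carry, were above 0 on 3 of 3 arrays. Both are also among the fibroblast markers. Sdc1, a proteoglycan that also binds Il34, was at 0.59 ± 0.50. Interleukin 3 itself (Il3) was not well above background in any sample.

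**Figure D4:**
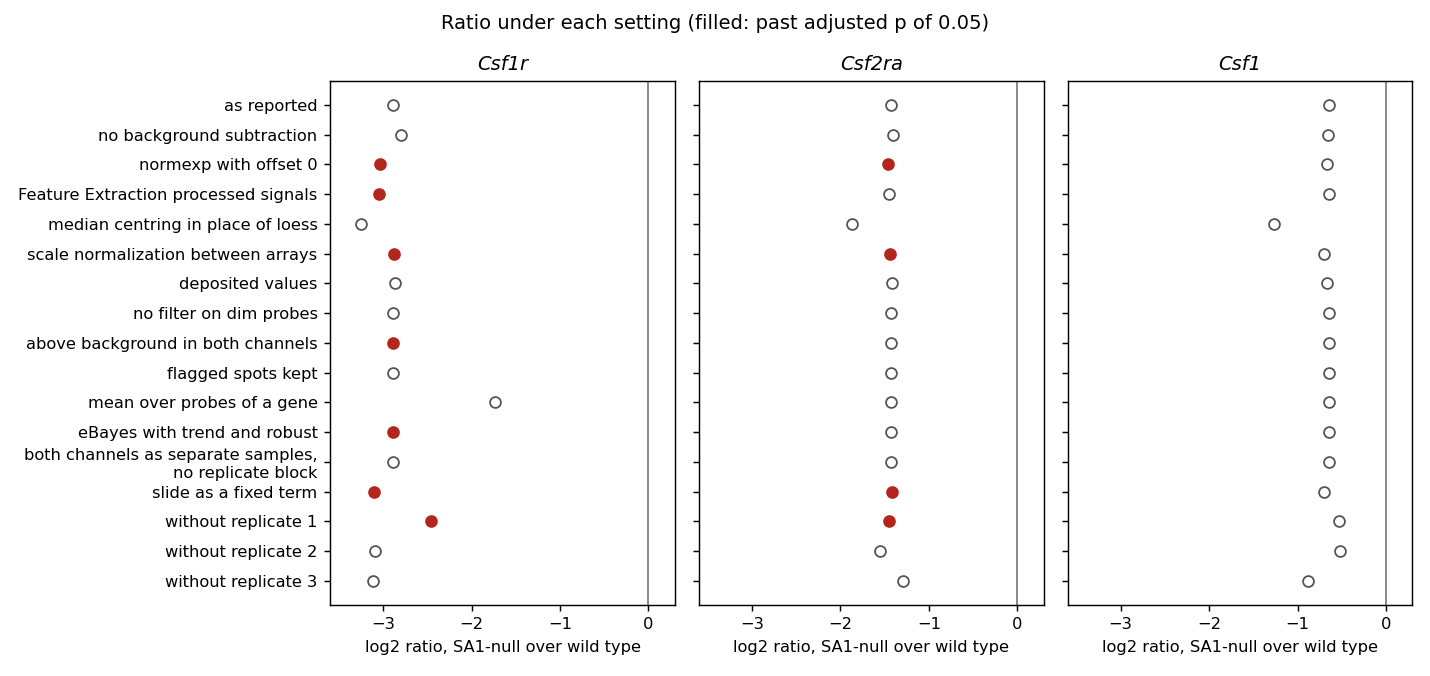
Log2 ratio of Csf1r, Csf2ra and Csf1 under each way of processing the arrays, channel labelled SA1-null over channel labelled wild type, with filled points past an adjusted p of 0.05. All points of the 3 genes lie below 0, and Csf1r passes under 7 of the 16 alternatives, Csf2ra under 4 and Csf1 under none (0).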

How the data were processed

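Expression was measured in 3 samples of 2 channels each on Agilent arrays, with 1 µg of RNA labelled per channel, per the labels' protocols. Spot and local background intensity values come from Feature Extraction 10.1.1.1 (replicate 1) and 10.7.3.1 (replicates 2 and 3), per the file headers, and so do processed intensity values, per the file headers. The deposited log2 values of the series were made with limma, per the submitters' processing notes, and ran as Cy5 over Cy3 (correlations 0.991, 0.986 and 0.997 over kept probes with the ratios computed here, medians -0.02, -0.02 and -0.01). Their centring is unknown.

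With limma 3.58.1 (R 4.3.3), median spot signals were corrected by normexp at an offset of 50, then by loess. Controls were given weight 0 and dropped, as were spots with outlier flags (116, 125 and 207). Probes were kept (24015) when more than 0.5 of their spots were well above background on all 3 arrays in at least 1 channel, the same on each. Levels come from Aquantile normalization. Accessions were matched without versions to the RefSeq table of GRCm38.p6 (23374 probes, 16535 genes), whose coordinates were not used, and 6453 tested transcripts kept their accession. The brightest probe stood for a gene. Mean ratios were tested with lmFit and eBayes, adjusted by Benjamini-Hochberg over all 18485 genes. The test was tested on simulated data. The 3 arrays limit the precision, and p-values measure the spread between these arrays.

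Genes named are the 9 members, Stag1, the nearest 5 genes to Csf1r and Csf1, and list members past the threshold or among the 4 with the smallest p, unless said otherwise. Some genes that this rule names are not reported here. The members and lists were chosen with earlier results of these data known. Alternatives concerned background, normalization, filter, probes, variance, slide, threshold and each replicate left out. The channels of an array share 1 hybridisation, which pairs them. Figures were drawn with matplotlib 3.10.9.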

Additional observations from a re-analysis of the deposited data

How the results depend on the processing

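Csf1r, Csf2ra, Csf1, Csf2rb and Il34 kept their direction under all 16 alternatives other than the threshold. Csf1r passed with an offset of 0 (-3.03), Feature Extraction's processed signals (-3.05), scale normalization (-2.87), both channels above background (-2.89), trend and robust variances (-2.89) and the slide as a fixed term (-3.10), and lay between -3.11 and -2.46 with 1 replicate left out. With both channels as separate samples and no replicate block it had the same ratio of -2.89 (adjusted p = 0.911 in limma), so the pairing within arrays bears on the p, and 0 genes passed in all. Csf2ra passed with an offset of 0, scale normalization, the slide term and without replicate 1. So 2 members were called with an offset of 0, scale normalization, the slide term and at a threshold of 0.1, 1 with processed signals, both channels above background and trend and robust variances, and 0 to 2 with a replicate left out. The receptor median moved to -1.86 with median centring, where all genes had -0.30, and otherwise lay between -1.55 and -1.26. The ligand median lay between -0.01 and 0.55. Under each alternative but that with no filter, these medians were the values of Csf2ra and of Kitl. With a replicate left out, the receptor median lay between -1.55 and -1.29, the ligand median between -0.01 and 0.52, and Csf1 between -0.88 and -0.52. Kitl turned to -0.00871 with median centring and to -0.00711 without replicate 3.

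Over all genes, 58 were called as reported (1384 at an unadjusted p under 0.05), and 0 with no background subtraction (1278), 0 with no filter (1982), 0 with no replicate block (633), 34 with median centring, 92 with both channels above background, 142 with trend and robust variances, 160 with scale normalization, 265 with an offset of 0, 326 with processed signals, 1770 with the slide term and 132 at a threshold of 0.1. With 1 replicate left out the count was 0 to 284, and Stag1 lay between 3.40 and 3.61. Stag1 missed the threshold with no background subtraction (3.36), scale normalization (3.67), no filter (3.52) and no replicate block (3.52), and also without replicate 2 (3.40) and without replicate 3 (3.54). The cause was not tested. The slide term leaves the spread to the arrays of 1 slide. Signal over background limits what can be said of Csf2, Csf3, Csf3r and the dim probes.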
